A study of Mus musculus with 6 samples.

Results

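The genes described here form the signalling cascade by which ON bipolar cells of the mouse retina read the light signal of photoreceptors. The list names 9 genes, Grm6, Trpm1, Gpr179, Nyx, Lrit3, Rgs11, Rgs7, Gnao1 and Pcp2, chosen by name, though with earlier results of these data known. All 9 were found once each among the 33696 genes of the deposited single-cell matrices. Their raw UMIs (molecular barcodes that count captured transcripts once each) were summed per library and cell class in all 6 libraries. Rod bipolar, cone bipolar and pigmented cells were compared, and tropicamide with saline within each class.

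The tissue was described as the posterior cup of mouse eyes, that is sclera, choroid and retina without lens, cornea, iris or ciliary body. Even so, 207 cells carried markers of corneal or conjunctival epithelium, 15 to 45 per tropicamide pool and 27 to 45 per saline pool. In the tropicamide group, 12 mice received drops of tropicamide, a muscarinic receptor antagonist that relaxes the ciliary muscle, 6 times at intervals of 10 min, and the tissue was taken 1 h later. In the saline group, 12 mice had saline drops, also at 10 min intervals, with no number of drops or wait stated for them. Each group had 3 libraries, and each library pooled 4 right eyes, so a pool stands for several animals and not for 1. The labels give neither strain nor age.

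In darkness photoreceptors release glutamate, which ON bipolar cells sense with mGluR6, a metabotropic receptor encoded by Grm6. The receptor acts through the G protein subunit Gαo, encoded by Gnao1, to close the cation channel TRPM1, so that light, which lowers glutamate, opens the channel and depolarises the cell. The complexes of RGS7 and RGS11 with Gβ5, held at the dendritic tip by the orphan receptor GPR179, speed the hydrolysis of GTP by Gαo, and the leucine-rich repeat proteins nyctalopin (Nyx) and LRIT3 are needed to place TRPM1 at the synapse. Loss of GRM6, TRPM1, GPR179, NYX or LRIT3 in humans causes the complete form of congenital stationary night blindness. OFF cone bipolar cells use ionotropic glutamate receptors in place of this cascade, and TRPM1 is also known from melanocytes, where it was first described as melastatin.

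Trpm1 and Gnao1 were both found in bipolar and pigment cells, and Trpm1 had the higher mean CPM in RPE-like and melanocyte-like cells. RefSeq lists 2 transcription starts for Trpm1 on chromosome 7, 31624 bases apart. Both promoters are shown for that reason, with the single promoter of Grm6, which was high in bipolar classes and at or near 0 in pigment cells. Each stretch runs from 250 bases before the start to 50 bases after it, 5′ to 3′, from RefSeq on the build GRCm38.p6. The deposited counts used the build GRCm39, and they are summed per gene, so they do not say which start was used. Capitals mark 3 motifs searched on both strands, TAATCC, the core site of OTX and CRX homeodomain proteins, and CACGTG and CATGTG, the forms of the E-box known from MITF sites in pigment cell genes.
Trpm1, upstream start (chr7:64153585-64153884, plus strand): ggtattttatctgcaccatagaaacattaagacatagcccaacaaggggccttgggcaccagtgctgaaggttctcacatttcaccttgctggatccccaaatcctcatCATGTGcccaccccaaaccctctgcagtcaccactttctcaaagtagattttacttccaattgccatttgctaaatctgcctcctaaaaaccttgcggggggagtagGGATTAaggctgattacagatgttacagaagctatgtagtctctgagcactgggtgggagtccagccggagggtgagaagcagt
Trpm1, downstream start (chr7:64185209-64185508, plus strand): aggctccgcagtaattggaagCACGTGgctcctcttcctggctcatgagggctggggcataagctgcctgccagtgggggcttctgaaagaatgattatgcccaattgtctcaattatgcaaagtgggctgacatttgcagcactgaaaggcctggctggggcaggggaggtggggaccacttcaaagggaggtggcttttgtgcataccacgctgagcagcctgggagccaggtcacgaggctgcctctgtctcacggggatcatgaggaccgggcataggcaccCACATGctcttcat
Grm6 (chr11:50850435-50850734, plus strand): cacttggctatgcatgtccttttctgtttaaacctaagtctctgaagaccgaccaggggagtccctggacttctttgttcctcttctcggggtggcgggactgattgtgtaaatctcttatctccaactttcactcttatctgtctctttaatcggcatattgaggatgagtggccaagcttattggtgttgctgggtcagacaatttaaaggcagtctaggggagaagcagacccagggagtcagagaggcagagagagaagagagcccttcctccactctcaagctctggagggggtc

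The upstream Trpm1 promoter held TAATCC once, on the minus strand (GGATTA in the printed strand), and CATGTG once. The downstream Trpm1 promoter held CACGTG once and CATGTG once, the second on the minus strand (CACATG). None of the 3 motifs was found in the Grm6 promoter. Among the promoters not shown, that of Rgs7 held CACGTG, and that of Gnao1 and 1 of 4 for Pcp2 held CATGTG. Rgs7 had 0 UMIs and Pcp2 had 1 UMI in melanocyte-like cells. Over 32851 promoters of this length, 7.06% held TAATCC, 7.15% held CACGTG, which is its own reverse complement, and 14.2% held CATGTG. These matches describe letters in a window and do not show a bound site.

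The libraries held 9499 to 13518 barcodes and 37373428 to 49477707 UMIs in the tropicamide pools, against 9472 to 10796 barcodes and 30761887 to 40897798 UMIs in the saline pools. Of 66434 barcodes, 60096 cells were kept. Any pair of the 6 libraries shared 22 to 64 barcode sequences. Clusters were made and named without the 9 genes, and a class named from its markers carries the ending "-like". There were 166 rod bipolar-like cells in 1 cluster and 450 cone bipolar-like cells, of which 339 in 4 clusters were named ON and 111 in 2 clusters OFF. Retinal pigment epithelium-like (RPE-like) cells numbered 1893, melanocyte-like cells 140 and rod-like cells 49201. Bipolar clusters took the kind with the highest of 3 marker scores (the mean over a list's markers of the z score of their level across bipolar clusters). The rod bipolar-like cluster scored 2.39 on its own markers and the 2 OFF clusters 0.75 and 1.12, but the 4 ON clusters scored 0.26, 0.92, 0.10 and 0.23, of which 3 lie below the minimum of 0.7 that held for the other classes. A UMI of Isl1, which rod and ON cone bipolar cells share, was present in 56.8% to 85.7% of cells in the ON clusters, against 2.70% and 0% in the OFF clusters. Sox6, another ON marker, was present in 89.0% of cells of 1 ON cluster and in 0% to 2.86% of the other 3, against 87.8% of the OFF cluster B37. Prkca was present in all rod bipolar-like cells, and Grik1 in 100% and 97.3% of the cells of the 2 OFF clusters but also in 42.8% of rod bipolar-like cells. The ON name thus rests on lower scores than the rod and OFF names, except in 1 cluster. In the ON cluster of 35 cells, called B44, 82.9% of cells held Prkca and 71.4% held Car8, both markers of rod bipolar cells. Its ON score of 0.23 lay beside 0.22 on the OFF list and 0.15 on the rod bipolar list.

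**Figure D1:**
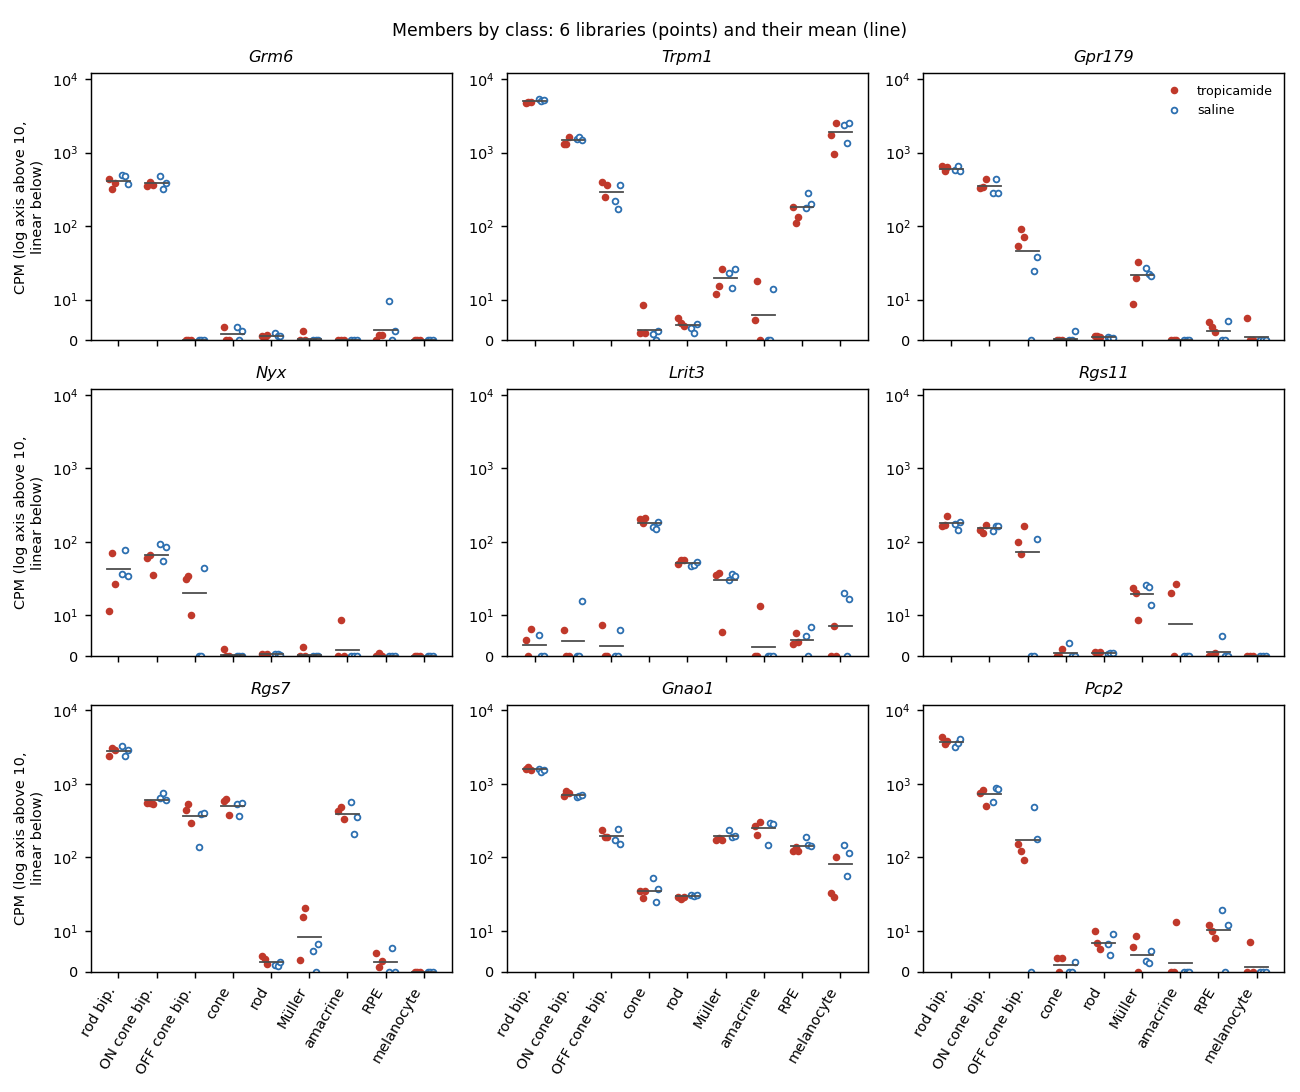
Level of each of the 9 genes in 9 cell classes, in CPM (UMIs of the gene per 1000000 UMIs of the class), on an axis that is logarithmic above 10 and linear below. Each point is 1 library, filled for the 3 tropicamide pools and open for the 3 saline pools, and the line is the mean of the 6. Grm6 sits at 0 in OFF cone bipolar and melanocyte classes, Trpm1 is high in bipolar and melanocyte classes, and Lrit3 is highest in cones.

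The cascade genes marked the ON bipolar classes as a group, although not with all 9 members. A rod bipolar-like cell held UMIs of a median of 7 of the 9 genes, an ON cone bipolar-like cell of 5 and an OFF cone bipolar-like cell of 2, and a rod-like cell of 0. At least 5 of the 9 genes were present in 92.8% of rod bipolar-like cells, 58.1% of ON cone bipolar-like cells and 12.6% of OFF cone bipolar-like cells. Only 1 of the 49201 rod-like cells held 5 or more. The depth behind these counts differed, with a median of 7290 UMIs in rod bipolar-like, 3547 in ON cone bipolar-like, 4348 in OFF cone bipolar-like and 2054 in rod-like cells. The clearest exception was Lrit3, which was all but missing from bipolar cells. Rgs11 overlapped between ON and OFF cone bipolar-like cells, and Rgs7 and Gnao1 were also found in other neurons.

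Between the classes, edgeR's quasi-likelihood test was fitted over all genes with the library as a block, and a call means a Benjamini-Hochberg adjusted p under 0.05. In rod bipolar-like over cone bipolar-like cells, 8 of the 9 genes passed the low-count filter and 6 were higher, where 13.0% of all 5393 genes tested were called higher. In rod bipolar-like over ON cone bipolar-like cells, a comparison added after the clusters were seen, 5 of 8 were higher (12.9% of all genes) and Nyx was lower (17.2% of all genes). In ON cone bipolar-like over OFF cone bipolar-like cells, also added, 6 of 7 were higher (8.36% of all genes). All 9 genes differed between bipolar-like cells summed and rod-like cells, 8 higher (29.3% of all genes) and 1 lower (35.1% of all genes). The 9 genes are known for this pattern, so these counts describe it and are no independent sign of it.

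Grm6, the glutamate receptor at the head of the cascade, had overlapping levels in both ON classes and was at 0 in the OFF class. Its level was 316 to 500 CPM in rod bipolar-like cells (median of 6 libraries 412.5) and 317 to 481 CPM in ON cone bipolar-like cells (median 373.1). The ranges overlapped almost fully, and edgeR gave a log2 fold change of 0.05 ± 0.13 (SE) between these classes, with an adjusted p of 0.824. Against all cone bipolar-like cells the log2 fold change was 0.48 ± 0.13 (edgeR adjusted p = 0.00371), with the rod bipolar-like value higher in 6 of 6 libraries. That class includes the OFF cells.

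No Grm6 UMI was found in the 111 OFF cone bipolar-like cells of any library, among 580861 UMIs. With 3 UMIs over the class as the floor, or 5.165 CPM, ON cone bipolar-like cells were at least 74.9-fold higher. The 0 of 111 cells allows a share of cells with a UMI of up to 3.35% (95% Wilson interval, counting error only). A Grm6 UMI was present in 80.7% of rod bipolar-like and 57.8% of ON cone bipolar-like cells, but in 31.3% and 30.2% once each cell was thinned to 1000 UMIs. In rod-like cells, which lack the receptor and serve as the measure of free RNA, the share was 0.230% (0.113% after thinning). Bipolar-like cells held 86.5% of all Grm6 UMIs in the data and rod-like cells 8.50%.

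Trpm1, the channel that the cascade closes, was high in bipolar and pigmented classes. Rod bipolar-like cells had 4660 to 5270 CPM (median 4958), ON cone bipolar-like cells 1287 to 1636 CPM (median 1514) and OFF cone bipolar-like cells 170 to 394 CPM (median 303.9). No pair of these ranges overlapped. The log2 fold change was 1.70 ± 0.11 in rod bipolar-like over ON cone bipolar-like cells (edgeR adjusted p = 5.864e-14) and 2.29 ± 0.19 in ON over OFF cone bipolar-like cells (edgeR adjusted p = 3.693e-08). Every rod bipolar-like cell held a Trpm1 UMI, and after thinning to 1000 UMIs the shares were 99.4%, 69.5% and 18.9% in rod bipolar-like, ON and OFF cone bipolar-like cells, against 0.401% in rod-like cells.

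Nyx, which encodes the nyctalopin that helps to hold TRPM1 at the dendritic tip, was low everywhere and was not higher in rod bipolar-like cells. It had 11.5 to 76.1 CPM there (median 35.5) and 35.7 to 91.9 CPM in ON cone bipolar-like cells (median 63.2), from 50 and 120 UMIs in all. The ranges overlapped. edgeR gave a log2 fold change of -0.81 ± 0.29 and an adjusted p of 0.0320, with the rod bipolar-like value lower in 4 of 6 libraries. The call was lost without tropicamide pool 1 (adjusted p = 0.145), saline pool 1 (0.0978) or saline pool 3 (0.167). Against all cone bipolar-like cells it was not called (log2 fold change -0.57 ± 0.29, edgeR adjusted p = 0.145). OFF cone bipolar-like cells had 0 to 44.3 CPM from 15 UMIs, too few to pass the filter.

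Lrit3, whose protein helps to recruit nyctalopin and TRPM1, followed a different pattern from the other 8 genes. Its level was 148 to 212 CPM in cone-like cells (median 182.9), 46.5 to 57.1 CPM in rod-like cells (median 51.3) and 5.81 to 37.6 CPM in Müller glia-like cells (median 35.0). In rod bipolar-like, ON and OFF cone bipolar-like cells only 3, 9 and 2 UMIs were found, with medians of 1.92, 0 and 0 CPM. The 3 top classes did not overlap, and each lay above every bipolar class except for the lowest Müller library. Bipolar-like cells summed were lower than rod-like cells at a log2 fold change of -3.67 ± 0.28 (edgeR adjusted p = 1.535e-13), the only member in that direction, and in 6 of 6 libraries.

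Lrit3 also differed between the photoreceptor classes. Cone-like cells exceeded rod-like cells at a log2 fold change of 1.95 ± 0.09 (edgeR with bias-adjusted dispersions, adjusted p = 2.981e-20), in a comparison added after the clusters were seen, where 4 of 5 members tested were called and 52.2% of all genes were. A Lrit3 UMI was present in 49.2% of cone-like and 9.96% of rod-like cells (15.9% and 5.04% after thinning), against 1.81% of rod bipolar-like and 1.06% of RPE-like cells. Rod-like cells held 87.4% of all Lrit3 UMIs, and cone-like cells 8.46%. In mice LRIT3 is known to be made by photoreceptors and to act across the synapse on the bipolar cell.

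Gpr179, the orphan receptor that anchors the RGS complexes, stood at 3 separate levels in the 3 bipolar classes. It had 554 to 655 CPM in rod bipolar-like (median 608.2), 283 to 438 CPM in ON cone bipolar-like (median 338.3) and 0 to 89.9 CPM in OFF cone bipolar-like cells (median 46.0), with no overlap between them. edgeR gave log2 fold changes of 0.76 ± 0.12 for the first over the second (adjusted p = 7.180e-06) and 2.77 ± 0.27 for the second over the third (adjusted p = 2.184e-07). Müller glia-like cells had 8.91 to 31.9 CPM, from 67 UMIs.

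The 2 RGS genes, whose proteins speed the shut-off of Gαo, differed in how they were spread. Rgs7 had 2404 to 3238 CPM in rod bipolar-like cells (median 2924), 540 to 741 CPM in ON cone bipolar-like cells (median 580) and 140 to 528 CPM in OFF cone bipolar-like cells (median 396.9). The rod bipolar-like libraries lay above all others, while the ON and OFF ranges were close without overlap. The log2 fold change was 2.18 ± 0.12 in rod bipolar-like over ON cone bipolar-like cells (edgeR adjusted p = 3.824e-15). That of ON over OFF cone bipolar-like cells was 0.70 ± 0.21 (edgeR adjusted p = 0.0271) and lost its call without tropicamide pool 3 (0.0819), saline pool 2 (0.0528) or saline pool 3 (0.0680).

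Rgs7 was also at 364 to 621 CPM in cone-like cells (median 538.8) and at 207 to 562 CPM in amacrine-like cells (median 388.2), which overlapped with the ON cone bipolar-like range. Cone-like cells exceeded rod-like cells, at 1.33 to 3.81 CPM, by a log2 fold change of 7.88 ± 0.11 (edgeR with bias-adjusted dispersions, adjusted p = 5.306e-37). Rgs11 overlapped between the ON classes, at 145 to 225 CPM in rod bipolar-like and 132 to 168 CPM in ON cone bipolar-like cells (medians 171.1 and 153.8), and it was not called (log2 fold change 0.18 ± 0.15, edgeR adjusted p = 0.431). In OFF cone bipolar-like cells it had 0 to 162 CPM (median 83.9). Its log2 fold change of ON over OFF cells was 0.87 ± 0.33 (edgeR adjusted p = 0.0900), which became a call with no low-count filter (adjusted p = 0.00597).

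Gnao1, the Gαo subunit itself, is used by many neurons, and its UMIs were spread over many classes, with 33.5% in bipolar-like cells, 30.9% in rod-like cells and 12.3% in fibroblast-like cells. Its level was still highest in the ON classes, at 1461 to 1707 CPM in rod bipolar-like (median 1580) and 665 to 809 CPM in ON cone bipolar-like cells (median 698.4). OFF cone bipolar-like cells had 152 to 243 CPM (median 191.7). None of these ranges overlapped, and the log2 fold changes were 1.09 ± 0.11 and 1.87 ± 0.17 (edgeR adjusted p = 1.015e-09 and 1.363e-07). The OFF range was like that of Müller glia-like cells, 171 to 237 CPM, and overlapped with amacrine-like cells, 146 to 304 CPM.

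Pcp2, a modulator of Gα subunits of the Gi and Go type that is known from Purkinje cells and rod bipolar cells, showed the steepest difference between the 2 ON classes. It had 3206 to 4411 CPM in rod bipolar-like (median 3664) and 500 to 873 CPM in ON cone bipolar-like cells (median 798.2), without overlap. The log2 fold change was 2.32 ± 0.12 (edgeR adjusted p = 1.271e-15). OFF cone bipolar-like cells had 0 to 486 CPM (median 138.9), below the ON range, with a log2 fold change of ON over OFF cells of 2.29 ± 0.29 (edgeR adjusted p = 7.142e-06). Bipolar-like cells held 85.4% of all Pcp2 UMIs.

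**Figure D2:**
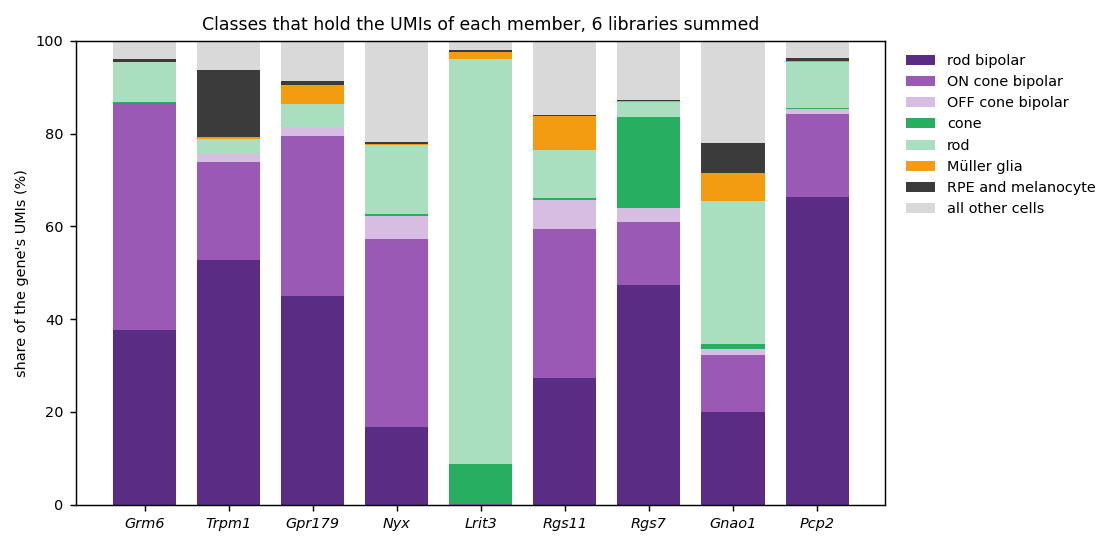
Share of each gene's UMIs (percent, 6 libraries summed) that was found in each group of cells, stacked to 100. Bipolar classes hold 86.5% of Grm6 and 85.4% of Pcp2 UMIs, while rod-like cells hold 87.4% of Lrit3 UMIs, and the pigmented classes stand out for Trpm1.

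The plot of UMI shares shows where each member's UMIs were found. Grm6, Pcp2 and Gpr179 had 81.3% to 86.5% of their UMIs in bipolar-like cells. Trpm1 had 75.5% there, with 8.81% in melanocyte-like and 5.52% in RPE-like cells. Rgs11 had 65.8% there, Rgs7 64.0%, with 19.6% in cone-like cells, and Nyx 62.3%, with 17.2% in fibroblast-like cells. For Gnao1 and Lrit3 most UMIs came from other cells. Rod-like cells are so many that low levels add up, and the 116 Grm6 UMIs in them equal 9.83% of the 1180 in bipolar-like cells.

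**Figure D3:**
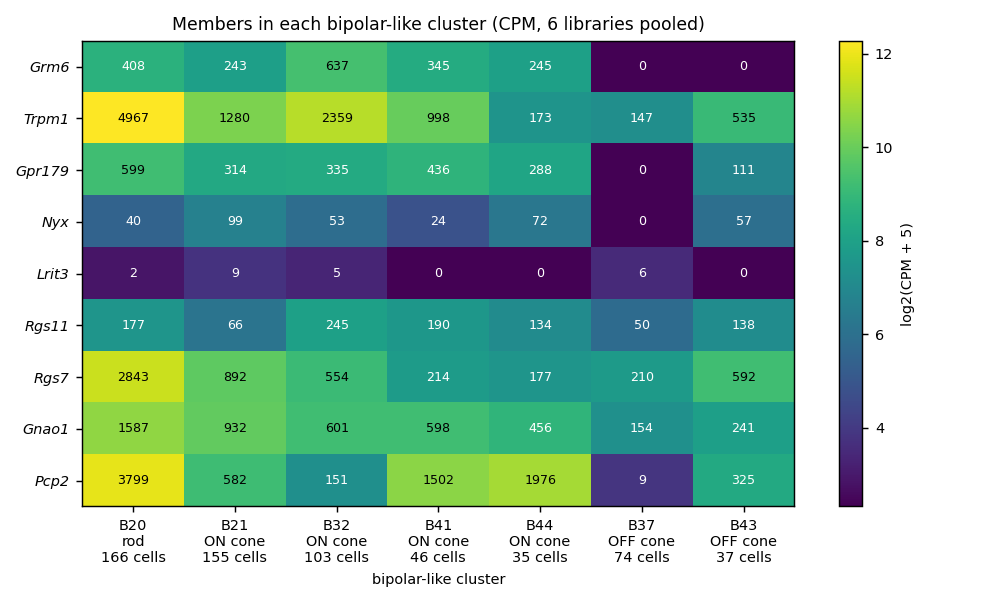
Level of each gene in the 7 bipolar-like clusters, in CPM with the 6 libraries pooled (numbers in the cells), coloured by log2(CPM + 5). The rod bipolar-like cluster B20 is brightest for Trpm1, Rgs7 and Pcp2, the 4 ON cone clusters differ most in Trpm1 and Pcp2, and both OFF clusters are at 0 for Grm6.

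The bipolar-like clusters, shown in the heat map of pooled levels, differed among themselves within each class. In the 4 ON cone bipolar-like clusters, of 155, 103, 46 and 35 cells, pooled Trpm1 was 1280, 2359, 998 and 173 CPM. Pooled Pcp2 ran otherwise, at 582, 151, 1502 and 1976 CPM, and pooled Grm6 was 243, 637, 345 and 245 CPM. The cluster of 35 cells, B44, thus had the lowest Trpm1 of the 4, in 25.7% of its cells, beside Gpr179 in 80.0% of them. Its name was the least certain, and no call of a member between classes changed side when it was left out.

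The 2 OFF cone bipolar-like clusters also differed from each other. In the cluster of 74 cells (B37) Grm6, Gpr179 and Nyx were all at 0 UMIs, and Trpm1 was at 147 CPM. In the cluster of 37 cells (B43) Grm6 was at 0 UMIs too, yet Gpr179 was at 111 CPM in 43.2% of cells, Nyx at 57.3 CPM in 32.4% and Trpm1 at 535 CPM in 81.1%. These cells had no UMI of Isl1, a marker of ON bipolar cells, and 97.3% of them had a UMI of Grik1, the kainate receptor subunit of OFF bipolar cells. Clusters were pooled over libraries here, so the values carry no replicate error. A further 18 bipolar cells could not be given a kind and were left out of every class.

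Pigmented cells held Trpm1 and Gnao1, and few UMIs of the other 7 genes. In melanocyte-like cells Trpm1 had 945 to 2557 CPM (median 2058), which overlapped with the ON cone bipolar-like range, and 75% of the cells held a UMI at a median depth of 1078 UMIs. RPE-like cells had 109 to 284 CPM (median 178.8) and a UMI in 17.5% of cells at a median depth of 1469 UMIs. Rod-like cells, the measure of free RNA, had 1.80 to 5.60 CPM and a UMI in 0.738% of cells. The 3 classes did not overlap. Gnao1 had a UMI in 14.3% of melanocyte-like and 23.8% of RPE-like cells, against 5.52% of rod-like cells (5.26%, 12.7% and 2.65% after thinning to 1000 UMIs).

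Melanocyte-like over RPE-like cells gave a log2 fold change of 3.34 ± 0.25 for Trpm1 (edgeR adjusted p = 2.819e-07), higher in 6 of 6 libraries. Both members that passed the filter there were called, where 56.7% of all genes were. The saline pools held only 4 to 8 melanocyte-like cells each, against 17 to 54 in the tropicamide pools. Gnao1 was lower in melanocyte-like cells, at 29.1 to 149 CPM against 122 to 188 CPM in RPE-like cells, with a log2 fold change of -1.05 ± 0.32 (edgeR adjusted p = 0.0136). That call was lost without tropicamide pool 1 (0.0725) or tropicamide pool 2 (0.0547).

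RPE-like over rod-like cells gave a log2 fold change of 5.98 ± 0.20 for Trpm1 and 2.76 ± 0.11 for Gnao1 (edgeR with bias-adjusted dispersions, adjusted p = 1.015e-21 and 7.889e-20). Pcp2 was also higher, at 1.03 ± 0.27 (adjusted p = 0.00103), so that 3 of 5 members tested were higher, where 28.1% of all genes were. The CPM ranges of Pcp2 overlapped, at 0 to 19.3 CPM in RPE-like and 4.14 to 9.85 CPM in rod-like cells. The median of all genes in this comparison was -1.0, which is the shift to read these values against. Rgs7 was not called (0.32 ± 0.54, adjusted p = 0.577), and Lrit3 was lower (-3.10 ± 0.23, adjusted p = 5.539e-14), where 56.7% of all genes were lower.

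Of the other 7 members, Grm6, Nyx, Rgs11 and Rgs7 had 0 UMIs in the 140 melanocyte-like cells, Gpr179 and Pcp2 had 1 each and Lrit3 had 4. In RPE-like cells Grm6, Nyx, Rgs11 and Rgs7 had 7, 1, 2 and 10 UMIs among 4518529, Gpr179 had 13, Pcp2 45 and Lrit3 20. Rod bipolar-like cells were at least 77.6-fold higher than melanocyte-like cells in Grm6 and at least 541-fold higher in Rgs7, with 3 UMIs over the class as the floor (5.259 CPM). The 9 RPE markers summed to 112.5 to 525.7 CPM in melanocyte-like cells. Ttr averaged 113.2 CPM and Rdh5 107.4 CPM in melanocyte-like cells, against 79270 and 7127 CPM in RPE-like cells. Ermn was at 0 in melanocyte-like cells in every library, against 642.4 CPM in RPE-like cells, while Best1 was near 0 in both classes.

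**Figure D4:**
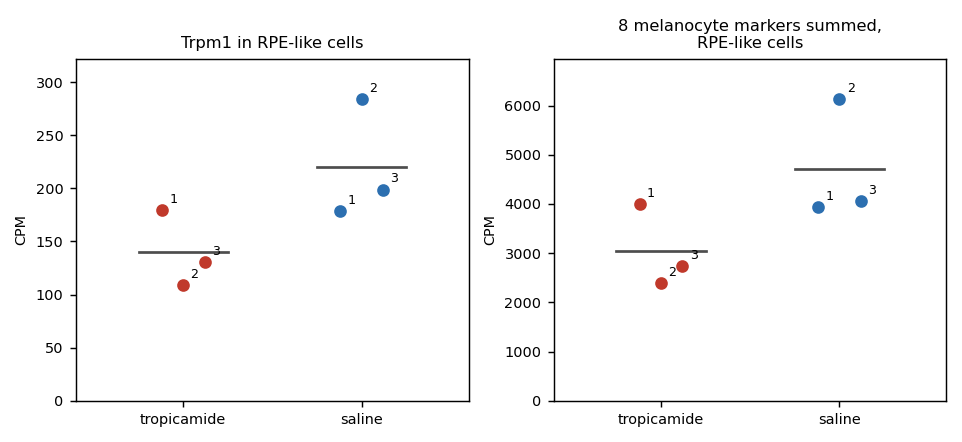
Trpm1 (left) and the sum of 8 melanocyte markers (right) in RPE-like cells, in CPM on linear axes from 0. Each point is 1 pool, numbered, and the line is the group's mean. In both panels saline pool 2 is highest and tropicamide pool 2 lowest, and tropicamide pool 1 lies beside saline pool 1.

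Under tropicamide no member passed the test in the classes compared, which were rod bipolar-like, cone bipolar-like, ON cone bipolar-like, RPE-like and rod-like cells, nor in all bipolar-like cells or all cells summed. Melanocyte-like, cone-like, OFF cone bipolar-like, Müller glia-like and amacrine-like cells were not tested for tropicamide. The lowest p of all was that of Trpm1 in RPE-like cells. It had 179, 109 and 131 CPM in the tropicamide pools, from 118, 173 and 193 UMIs, and 178, 284 and 199 CPM in the saline pools, from 37, 48 and 84 UMIs. Tropicamide pool 1 lay just above the lowest saline pool, and the other 2 tropicamide pools lay below all saline pools. The log2 fold change was -0.67 ± 0.17, with an unadjusted p of 0.000380 and an adjusted p of 0.166 in edgeR, where 0.115% of all 5233 genes were called.

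The Trpm1 result turned on single libraries. It became a call without tropicamide pool 1 (log2 fold change -0.83, edgeR adjusted p = 0.00187) and without saline pool 1 (-0.77, adjusted p = 0.0268), while without saline pool 2 the adjusted p was 0.808, and DESeq2 gave 0.8595. In the largest RPE-like cluster, of 975 cells, the tropicamide pools had 168, 109 and 133 CPM and the saline pools 192, 318 and 210 CPM, with no overlap. In the second, of 830 cells, the tropicamide pools had 259, 132 and 134 CPM and the saline pools 87.1, 246 and 209 CPM, which overlapped, the lowest from 3 UMIs.

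Melanocyte markers moved in the same order in RPE-like cells. The 8 markers summed to 4003, 2388 and 2737 CPM in the tropicamide pools, against 3942, 6128 and 4065 CPM in the saline pools. The pigment epithelium also uses 5 of the 8, Dct, Pmel, Tyrp1, Mlana and Tyr. Of the other 3, Sox10 had 35.5 to 62.6 CPM, Kit 0 to 11.8 CPM and Mc1r 0 to 4.82 CPM. RPE-like cells were also a larger share of cells after tropicamide, at 4.66% ± 1.27 against 1.26% ± 0.625 after saline (SD, n = 3 pools each). An exact permutation test of the logit share (two-sided) gave p = 0.1, the smallest it allows, and 0.175 adjusted over the 14 shares compared. The part of these values in the Trpm1 difference was not tested. Gnao1, the other member tested in RPE-like cells, had a log2 fold change of -0.27 ± 0.16 (edgeR adjusted p = 0.815).

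In rod bipolar-like cells no member differed by the test. Grm6 had 441, 316 and 384 CPM in the tropicamide pools, against 500, 479 and 373 CPM in the saline pools, which overlapped. Trpm1 had 4660, 4889 and 4910 CPM after tropicamide and 5270, 5005 and 5120 CPM after saline, where every tropicamide pool lay below every saline pool. The 7 rod bipolar markers that named the class separated in the same way. They summed to 13100, 12990 and 12460 CPM after tropicamide and 15300, 13940 and 13660 CPM after saline. Their part in the values of Trpm1 was not tested. Of 9 genes 7 were tested and 0 were called by edgeR or DESeq2, 0 had an unadjusted p under 0.05, and edgeR called 0% of all 4327 genes tested, with 269 at an unadjusted p under 0.05. The log2 fold changes ran from -0.26 ± 0.18 (Grm6, -0.41 to -0.14 leaving out 1 pool) and -0.13 ± 0.13 (Trpm1) to 0.07 ± 0.13 (Pcp2), at adjusted p values of 0.868 to 0.973. On simulated data the same fit found 62.0% of 2-fold changes in this class, so changes of that size or smaller could be missed.

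**Figure D5:**
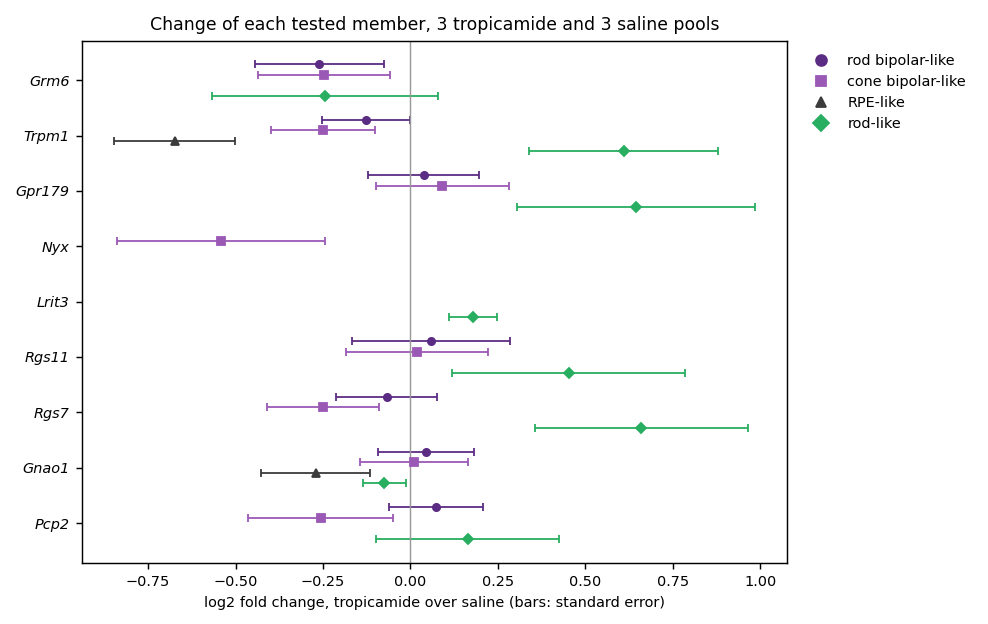
Log2 fold change of tropicamide over saline for each member that passed the filter, with its standard error, in 4 classes (3 pools per group). Values in the 2 bipolar classes lie between -0.54 and 0.09, Trpm1 in RPE-like cells is at -0.67, and 6 of 8 members in rod-like cells lie above 0.

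In cone bipolar-like cells 8 genes were tested and 0 were called by edgeR or DESeq2 (0.0739% of all genes), with none at an unadjusted p under 0.05. On simulated data the fit found 54% of 2-fold changes in this class. Nyx had 51.8, 58.99 and 27.1 CPM in the tropicamide pools, against 74.9, 43.2 and 74.5 CPM in the saline pools, which overlapped, and a log2 fold change of -0.54 ± 0.30 (edgeR adjusted p = 0.992). Trpm1, Rgs7, Pcp2 and Grm6 had log2 fold changes of -0.25 to -0.26 with standard errors of 0.15 to 0.21, and Gnao1, Gpr179 and Rgs11 of 0.01 to 0.09. Single pools moved some of these: Grm6 was at -0.03 without saline pool 1 and -0.38 without tropicamide pool 2, Pcp2 at -0.04 without tropicamide pool 3, -0.08 without saline pool 2, -0.45 without tropicamide pool 2 and -0.44 without saline pool 1, and Rgs7 at -0.15 without saline pool 2. The plot of changes shows these values beside those of the other classes. The median over the 8 genes was -0.25, against -0.01 over all 6768 genes tested, and it rests on values that move with single pools.

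The ON cone bipolar-like cells alone, a comparison added after the clusters were seen, gave 0 of 8 (0.0685% of all genes). With all bipolar-like cells summed, 0 of 8 were called by edgeR or DESeq2 (0.0119% of all genes), and the log2 fold change was -0.26 ± 0.14 for Grm6 and -0.16 ± 0.11 for Trpm1 (edgeR adjusted p = 0.881 and 0.907). Leaving out 1 pool gave -0.38 to -0.10 for Grm6. The RPE markers summed to 136, 374.5 and 209 CPM in bipolar-like cells of the tropicamide pools, against 44.7, 14.7 and 79.2 CPM in the saline pools, without overlap, and the 8 melanocyte markers to 22.69, 18.8 and 8.97 CPM, against 3.72, 5.88 and 6.70 CPM. Whether this bears on any member's change was not tested. The change in rod bipolar-like minus that in cone bipolar-like cells was called for 0 of 8 genes (0.0152% of all genes), with values from -0.08 to 0.32. The change in RPE-like minus that in bipolar-like cells was called for 0 of 8 (0.285% of all genes), and Trpm1 was at -0.21 ± 0.19 where the median of all genes was 0.33. With DESeq2 size factors in place of TMM it was at -0.51 ± 0.17 (edgeR adjusted p = 0.501). Each fit that left out 1 pool gave a lower value than -0.21, from -0.68 to -0.31, with no call.

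In rod-like cells 8 genes were tested, all but Lrit3 and Gnao1 at under 10 CPM. Lrit3 had 50.2, 57.1 and 56.9 CPM in the tropicamide pools, against 46.5, 48.1 and 52.4 CPM in the saline pools, which overlapped, with a log2 fold change of 0.18 ± 0.07 (edgeR adjusted p = 0.117). Trpm1 was at 0.61 ± 0.27, Rgs7 at 0.66 ± 0.30 and Gpr179 at 0.64 ± 0.34 (adjusted p = 0.167, 0.183 and 0.245). By edgeR 0 of 8 were called, DESeq2 called 0, and 10.5% of all 16304 genes tested were called by edgeR. An unadjusted edgeR p under 0.05 was found for 2 of the 8 and for 4513 of the 16304 genes. The count among members is thus no more than that of all genes. Without saline pool 3, Lrit3 and Trpm1 became calls (log2 fold change 0.23 and 0.89, edgeR adjusted p = 0.0496 and 0.0428). The share of all genes called in that fit is not given here, so these calls are not set against it. Without saline pool 2, Trpm1 was at 0.345 (adjusted p = 0.415). The 8 melanocyte markers summed to 36.2, 25.8 and 15.2 CPM in rod-like cells of the tropicamide pools, against 12.15, 10.55 and 10.8 CPM in the saline pools, without overlap. Their part in the values of Trpm1 was not tested.

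Over all cells summed, where fewer cells of a type and less RNA per cell cannot be told apart, all 9 genes were tested. edgeR and DESeq2 called 0, and 0.00996% of all 20086 genes were called by edgeR. Trpm1 had 72.4, 52.0 and 50.98 CPM in the tropicamide pools, against 68.1, 41.2 and 75.3 CPM in the saline pools, which overlapped. Grm6 had 7.65, 5.59 and 4.78 CPM after tropicamide and 10.1, 5.19 and 8.76 CPM after saline (log2 fold change -0.39 ± 0.29, edgeR adjusted p = 0.436). Bipolar-like cells made up 1.40%, 0.859% and 0.769% of cells in the tropicamide pools, against 1.09%, 0.566% and 1.58% in the saline pools. These shares overlapped, and an exact permutation test of the logit share (two-sided) gave p = 1, where it cannot go below 0.1. The pools with most bipolar cells, tropicamide 1 and saline 3, were those with most Trpm1. The part of the share in the values over all cells was not tested, and bipolar-like cells held 0.224% of Lrit3 and 33.5% of Gnao1 UMIs.

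The neighbours of the cascade were taken from 3 lists, whose genes were not left out of the clustering, so that their values between classes are descriptions. Of 10 G protein and RGS partners, 7 were tested in ON over OFF cone bipolar-like cells and 3 were higher, where 8.36% of all genes were. Gng13, the γ subunit that pairs with Gβ3 in ON bipolar cells, averaged 1704 CPM in rod bipolar-like, 1158 CPM in ON and 450 CPM in OFF cone bipolar-like cells. Gnb3, its β partner, averaged 1280, 924 and 162 CPM in the same classes and 3556 CPM in cone-like cells, which use it with cone transducin. Gnb5, the partner of RGS7 and RGS11, averaged 397, 371 and 178 CPM.

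Some partners were lower in rod bipolar-like cells. Gpr158, an orphan receptor of the same family as Gpr179, averaged 8.49 CPM in rod bipolar-like, 85.4 CPM in ON and 90.3 CPM in OFF cone bipolar-like cells, with a log2 fold change of -3.18 ± 0.35 in rod bipolar-like over cone bipolar-like cells (edgeR adjusted p = 9.852e-09). Among 12 photoreceptor partners, 9 were tested in rod bipolar-like over cone bipolar-like cells, with 0 higher and 4 lower (Cacnb2, Cacna1f, Slc17a7 and Bsn), where 13.0% of all genes were higher and 17.0% lower. Elfn1, which binds mGluR6 from the photoreceptor side in mice, averaged 90.8 CPM in rod-like and 90.9 CPM in cone-like cells and 6.13 CPM in rod bipolar-like cells. Among 9 glutamate receptors of OFF bipolar cells, Grik1, which served to name the OFF class, averaged 8333 CPM there and 18.0 CPM in ON cone bipolar-like cells. Of these receptors 5 were tested in ON over OFF cone bipolar-like cells, with 0 higher and 1 lower, Grik1 itself. Of all 3553 genes tested there, 250 were lower.

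Under tropicamide none of these list genes was called in bipolar-like, RPE-like or all cells. In rod-like cells 3 of the 10 G protein and RGS partners were called, and 1 of the 12 photoreceptor partners, where 10.5% of all genes were, so that the second count is no more than that of all genes. Rgs9bp, which anchors the RGS9 complex in photoreceptors, rose by a log2 fold change of 0.48 ± 0.05 (edgeR adjusted p = 0.000686) and Gnb5 rose by 0.26 ± 0.05 (adjusted p = 0.00974). Gnb3 fell by 0.26 ± 0.06 (log2, adjusted p = 0.0223), and Ctbp2, the gene of the ribbon protein RIBEYE, rose by 0.29 ± 0.05 (adjusted p = 0.00767). The RPE markers summed to 123, 272 and 218 CPM in rod-like cells of the tropicamide pools, against 47.9, 40.4 and 75.9 CPM in the saline pools, and their part in these values was not tested.

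The genes most like a member in their pattern were ranked by Pearson's r of log2(CPM + 5) over 16 classes with at least 50 cells, among 12562 genes. The classes share their 6 libraries, so r describes likeness and has no p. For Grm6 they were St18 (0.988), Vwc2l (0.984), Drd2 (0.980), Isl1 (0.979) and Abcc8 (0.959), of which Isl1 had served to name classes. For Pcp2 they were led by Rgs8 (0.990), and for Gnao1 by Sesn3 (0.890). Trpm1 had no neighbour above 0.909 (Tnr), and its r with Grm6 was 0.663, against 0.878 for Gpr179 with Grm6. With Grm6, Trpm1, Pcp2 and Gnao1, Lrit3 had r of -0.204 to 0.064.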

How the data were processed

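The deposited files hold raw UMI counts per gene and barcode, made by the authors with Cell Ranger 8.0.1 and STAR on GRCm39, per the submitters' processing notes. The labels' tissue extraction text concerns bone, not eye, and was set aside. Barcodes needed 500 UMIs, 300 genes and a mitochondrial share of no more than 20%, and 5922 predicted doublets were removed (simulated doublets, 0.8% per 1000 cells). Cells were clustered (Leiden, leidenalg 0.10.2, 2000 variable genes, 30 components) without the 9 members, and named from fixed markers, with naming limits set after the clusters were seen. Keeping the members in the clustering gave every bipolar cell the same class. The RPE-like class then held 1953 cells in place of 1893, among them all 1893. Counts were summed per library and class and tested in edgeR 4.0.16 (quasi-likelihood, TMM, filterByExpr, Benjamini-Hochberg over all genes), with the library as a block between classes. For RPE-like over rod-like cells, where 1 member's p was too small to be written, and for cone-like over rod-like cells, member values come from a fit with bias-adjusted dispersions, added after seeing the data, and the members called were the same in both fits. The shares and medians over all genes in those comparisons come from the fit without that adjustment. DESeq2 1.42.0, other scalings and filters, and leaving out each pool were alternatives. The fit was tested on simulated data. The pooled libraries are the replicates. For tropicamide, p-values measure the spread between pools. Between classes, where the library is a block, they measure the spread of the class difference within libraries. In both, edgeR draws each gene's spread partly from all genes. Intervals and floors cover counting error only.

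The members and lists were chosen with earlier results of these data known. All 9 members are named in each comparison where they matter, and further genes by Pearson's r or from the lists. RefSeq promoters matched 8 of the 9 members.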

Additional observations from a re-analysis of the deposited data

Results flagged for a closer look

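The log2 ratio of Gnao1, all bipolar-like over rod-like cells, was 5.27 in tropicamide pool 2, against 4.86 to 5.01 in the other 5 libraries. The gap made up 0.630 of the range, above the critical value of 0.625 for 6 samples. It was 1 of 31 ratios examined, and chance flags about 1 in 20 groups.

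A pigmented cluster of 66 cells that could not be named, and that entered no comparison, held Trpm1 at 255.1 CPM, from 42 UMIs pooled over libraries. Rod-like cells had 1.80 to 5.60 CPM of Trpm1.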

How the results depend on the processing

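Of the values for single members, 1325 kept their side of the threshold under the alternatives, 10 lost a call and 6 gained one, and none reversed among calls. Values that were not called could change sign. Under tropicamide in rod-like cells, leaving out 1 pool gave -0.10 to 0.46 for Pcp2 and -0.41 to 0.07 for Grm6. Counts of calls and shares stayed within 1.5 times or 1 SD in 195 cases and moved in 7. With the replicate block, 1 member, Trpm1, was called for tropicamide in RPE-like cells, against 0 without it. The replicate numbers are not shown to pair the libraries: same-numbered pools had correlations of their deviations of -0.474 to 0.026 over the all-cell, rod-like and bipolar-like sums. Leaving out 1 pool gave counts of 0 to 1 for tropicamide in RPE-like cells, 0 to 2 in rod-like cells and 1 to 2 for melanocyte-like over RPE-like cells. For cone-like over rod-like cells it gave 3 to 4, and the call of Gnao1 there was lost in 2 alternatives. The shares of all genes called in the fits that left out 1 pool are not given here. The log odds of the bipolar share, tropicamide minus saline, were -0.0188 among all cells (-0.302 to 0.2165 leaving out 1 pool) and -0.6030 among cells that are not rods (exact permutation p = 0.1, the smallest possible). The cause was not tested. Depth limits Nyx, Lrit3 and Rgs11 in bipolar classes, and 16 to 40 rod bipolar-like cells per pool limit the treatment comparison.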
